A study of Mus musculus with 6 samples.

Results

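Neutrophils are short-lived white blood cells that leave the blood for sites of injury and infection. The 10 genes examined here encode products of these cells, the chemoattractants that draw them into tissue and the receptors that read those signals, and were taken as the rows of the count table with the symbols S100a8, S100a9, Mmp8, Mmp9, Cxcl1, Cxcl2, Cxcr2, Csf3r, Il1b and Il1r2. All 10 were found among the 24063 genes listed. RNA-seq was performed on liver tumors of 3 WT (NR2E3+/+) and 3 Nr2e3-/- male mice, all labelled C57BL/6. The study's methods give 3 mice per genotype, but the labels do not tie a library to a mouse, so that p-values measure the spread between these samples. Mice of both genotypes had received diethylnitrosamine (DEN), a carcinogen activated in hepatocytes, at 25 mg per kg by intraperitoneal injection at 15 days of age, and tumors were sequenced at the 24-week time point. The study's methods name a commercial supplier of C57BL/6J WT mice for DEN liver injury and mention no littermate controls. The sources used here do not say how the knockout allele was made or whether a library holds a single nodule or several. The values are raw read counts per gene, and CPM below means counts per 1000000 after TMM normalization, which scales libraries to a common level for most genes.

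In an inflamed liver, CXCL1 and CXCL2 are released by hepatocytes, macrophages and endothelium and act on CXCR2, the main chemokine receptor of neutrophils. The cytokine G-CSF, through the receptor encoded by Csf3r, sustains neutrophil production and survival. S100A8 and S100A9 form calprotectin, the major cytosolic protein of neutrophils, while MMP8 and MMP9 are proteases stored in their granules. Interleukin-1β (Il1b) induces many of these signals, and Il1r2 encodes a decoy receptor that binds it without signaling.

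Total counts were between 25250090 and 28690279 in WT and between 15376261 and 28336305 in Nr2e3-/- libraries. Nr2e3 had 0 counts in every library, which allows up to 3 counts, or 0.101 to 0.199 CPM, so the genotype could not be checked from its own gene. Hepatocyte markers such as Alb and Apoa1 summed to between 131000 and 175000 CPM in every library. Nr2e3-/- replicate 1 stood apart from the other Nr2e3-/- libraries, since leaving it out raised the number of genes called from 13 to 3022, and values without it stand beside the main results of the 10 genes. The tissue was not sorted, so that fewer cells of a type and less RNA per cell cannot be told apart.

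The ratio of mean CPM, Nr2e3-/- over WT, was 1.57 for Mmp9, 1.05 for Cxcl2 and Il1b and 1.03 for Csf3r. It was over 2 for the other 6 of the 10 genes, against 7.04% of the 18815 genes with at least 1 count. These 6 were S100a8, S100a9, Mmp8, Cxcl1, Cxcr2 and Il1r2. Their excess lay in Nr2e3-/- replicates 2 and 3. Nr2e3-/- replicate 1 was within or below the WT range for 5 of the 6 (all but Il1r2), and the spread within the Nr2e3-/- group was large for each. None of the 8 genes that passed the filter on low counts reached an adjusted p under 0.05 in edgeR's quasi-likelihood test, against 0.0958% of the 13572 genes tested, while 4 of the 8 were higher with an unadjusted p under 0.05, against 11.8%. Mmp8 and Il1r2 did not pass the filter and have no p from that test. DESeq2 called 2 of the 8 (S100a8 and S100a9), against 4.98% of genes called higher by DESeq2. Without Nr2e3-/- replicate 1, edgeR called 5 of these 8 genes higher (all but Cxcl2, Csf3r and Il1b), against 12.2% of genes called higher in that fit. Mmp8 and Il1r2 were called in it too, for 7 of 10 in all, but entered it only through Nr2e3-/- replicates 2 and 3, where they were high. Nr2e3-/- replicate 1 was the lowest Nr2e3-/- library for each gene called, so leaving it out could only raise their differences. When Nr2e3-/- replicate 2 or 3 was left out instead, 0 of the genes were called.

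**Figure D1:**
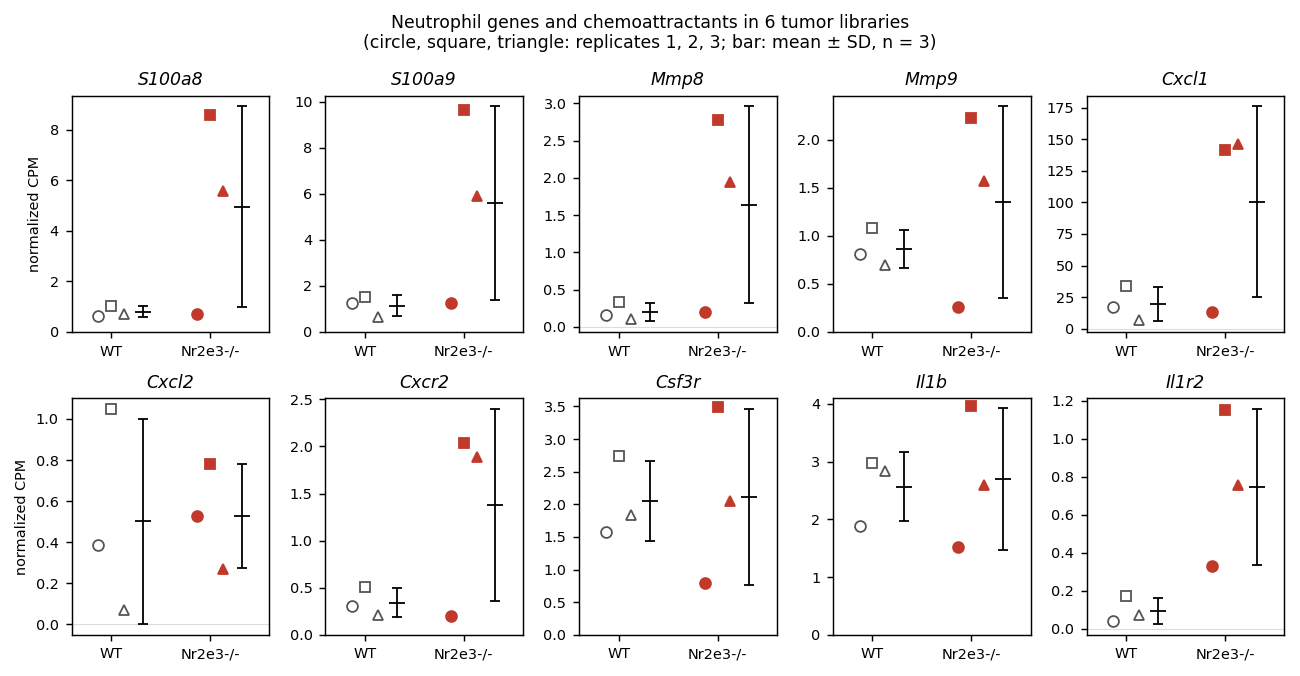
Normalized CPM (vertical axis, linear, a scale of its own for each gene) of the 10 genes in the 3 WT libraries (grey, open) and 3 Nr2e3-/- libraries (red, filled), with marker shapes for replicate numbers and bars for mean ± SD (n = 3). For S100a8, Nr2e3-/- replicates 2 and 3 sit at 8.61 and 5.57 CPM and replicate 1 at 0.728, within the WT range of 0.653 to 1.05.

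S100a8, a calprotectin subunit, lies on chromosome 3 (GRCm38, GENCODE annotation, as for all genes below) from 90668978 to 90670035 on the plus strand. It had 17, 31 and 20 counts in WT replicates 1, 2 and 3 and 11, 232 and 103 counts in Nr2e3-/- replicates 1, 2 and 3. Nr2e3-/- replicate 1 lay among the WT libraries and the other two far above them, so that the groups overlapped. The WT mean was 0.798 ± 0.218 CPM (SD, n = 3), and Nr2e3-/- tumors averaged 4.97 ± 3.97 CPM (SD, n = 3). The log2 fold change was 2.65 (standard error, SE, 0.76), short of significance with an edgeR adjusted p of 0.134. It was 3.15 without Nr2e3-/- replicate 1 (edgeR adjusted p = 0.00275). Without Nr2e3-/- replicate 2 it was 1.99 (edgeR adjusted p = 0.225) and without Nr2e3-/- replicate 3 it was 2.58 (edgeR adjusted p = 0.374).

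S100a9, its partner subunit, lies 22596 bases further along chromosome 3 (90692632 to 90695721, minus strand). Its counts were 33, 45 and 19 in WT and 19, 260 and 109 in Nr2e3-/- libraries, in the order of the replicate numbers. The order of the Nr2e3-/- libraries was that of S100a8, with replicate 1 inside the WT range. For S100a9 the log2 fold change was 2.30 (SE 0.68, edgeR adjusted p = 0.14), and 2.77 without Nr2e3-/- replicate 1 (edgeR adjusted p = 0.00641). Without Nr2e3-/- replicate 2 it was 1.65 (edgeR adjusted p = 0.24) and without Nr2e3-/- replicate 3 it was 2.28 (edgeR adjusted p = 0.378). The DESeq2 adjusted p-values of S100a8 and S100a9 were 0.00633 and 0.0103.

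Mmp8, neutrophil collagenase, is located on chromosome 9 (7558456 to 7568485). It had 4, 10 and 3 counts in WT and 3, 75 and 36 counts in Nr2e3-/- libraries. At this depth the WT libraries and Nr2e3-/- replicate 1 were not separated by counting error, as the exact Poisson 95% interval of the latter was 0.0409 to 0.58 CPM around 0.199. The intervals of Nr2e3-/- replicates 2 and 3 (2.19 to 3.49 and 1.36 to 2.69 CPM) lay above those of every WT library. Over summed counts, 114 in Nr2e3-/- and 17 in WT, the ratio was 9.36 with an exact 95% interval of 5.59 to 16.6. These intervals cover counting error only and not the spread between mice, and the exact two-sided permutation p over the 6 libraries was 0.2, where 3 against 3 cannot go below 0.1.

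Mmp9, gelatinase B, is made by neutrophils and also by macrophages and is located on chromosome 2 (164940780 to 164955850). It had 21, 32 and 20 counts in WT and 4, 60 and 29 counts in Nr2e3-/- libraries. Nr2e3-/- replicate 1 was the lowest of the 6 libraries and replicates 2 and 3 were the highest. The log2 fold change of 0.70 was close to its standard error of 0.61 (edgeR adjusted p = 0.52). Without Nr2e3-/- replicate 1 it was 1.15 (edgeR adjusted p = 0.0453) and without Nr2e3-/- replicate 2 it was 0.13 (edgeR adjusted p = 0.917).

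Cxcl1 had the highest level of the 10 genes per exon length, with 10.3 CPM per kilobase in WT and 53.6 in Nr2e3-/- tumors. Next by mean level in Nr2e3-/- tumors came S100a9 with 10.7 and S100a8 with 7.16 CPM per kilobase, and Cxcl2 was the lowest with 0.255. Cxcl1 and Cxcl2 encode related ligands of CXCR2 and are neighbors on the plus strand of chromosome 5, at 90891241 to 90893115 and 90903871 to 90905938, with 10755 bases between them. Cxcl1 had 453, 994 and 201 counts in WT and 204, 3818 and 2708 counts in Nr2e3-/- libraries. Again Nr2e3-/- replicates 2 and 3 exceeded every WT library and replicate 1 did not. Means were 19.3 ± 13.4 CPM (SD, n = 3) and 101 ± 75.4 CPM (SD, n = 3). This gave a log2 fold change of 2.38 (SE 0.88, edgeR adjusted p = 0.19), and 2.91 without Nr2e3-/- replicate 1 (edgeR adjusted p = 0.0153). Without Nr2e3-/- replicate 2 it was 2.05 (edgeR adjusted p = 0.291) and without Nr2e3-/- replicate 3 it was 2.01 (edgeR adjusted p = 0.458).

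Cxcl2 had 10, 31 and 2 counts in WT and 8, 21 and 5 counts in Nr2e3-/- libraries. The highest and the lowest of the 6 libraries were WT, and Nr2e3-/- replicates 2 and 3, which had the most Cxcl1, did not stand out. Its log2 fold change was 0.10 with a standard error of 0.81 (edgeR adjusted p = 0.951), which is too wide to show that the groups were alike. Cxcl1 had 25.5 to 100 times the counts of Cxcl2 in the WT libraries and Nr2e3-/- replicate 1, and 182 and 542 times in Nr2e3-/- replicates 2 and 3. The other CXC chemokine genes between 90759360 and 90803067 of chromosome 5, Cxcl5, Ppbp, Pf4, Cxcl3 and Cxcl15, had at most 35 counts in any library. Of Cxcl3, 35 counts were in WT replicate 2, 5 in Nr2e3-/- replicate 3 and 0 in each of the other libraries.

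The promoters of Cxcl1 and Cxcl2 are shown because the adjacent genes share a sequence feature but differed in their counts. NF-κB, the transcription factor that interleukin-1 activates, binds κB sites, here searched on both strands as GGG, any 2 bases, then TTTCC. The sequences are the 250 bases before the RefSeq start (GRCm38.p6, plus strand), with letters that match this motif in capitals.
Cxcl1, chr5:90890995-90891244: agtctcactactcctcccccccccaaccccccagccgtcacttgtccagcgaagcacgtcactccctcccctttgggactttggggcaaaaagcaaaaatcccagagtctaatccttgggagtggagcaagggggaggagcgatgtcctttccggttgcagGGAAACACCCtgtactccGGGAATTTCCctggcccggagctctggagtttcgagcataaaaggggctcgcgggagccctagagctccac
Cxcl2, chr5:90903649-90903898: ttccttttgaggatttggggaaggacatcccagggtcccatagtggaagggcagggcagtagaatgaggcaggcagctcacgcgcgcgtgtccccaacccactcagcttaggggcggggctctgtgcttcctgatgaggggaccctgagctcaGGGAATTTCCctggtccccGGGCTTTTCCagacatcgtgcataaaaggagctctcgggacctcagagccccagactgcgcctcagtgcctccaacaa
Each window holds 2 matches, starting 89 and 71 bases before the start in Cxcl1 and 97 and 78 bases before it in Cxcl2, and GGGAATTTCC occurs in both. The match at 89 bases reads on the minus strand. A match was found in 1.41% of the 32851 promoter windows of the same length in the RefSeq table, and in 2 of the 9 genes of interest that have an entry there. The match is a description of the letters, and Cxcl2, which holds it too, was counted at low levels in both groups.

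Cxcr2, the receptor of CXCL1 and CXCL2, is on chromosome 1 (74153989 to 74161246). It had 8, 15 and 6 counts in WT and 3, 55 and 35 counts in Nr2e3-/- libraries, so Nr2e3-/- replicate 1 was the lowest of the 6 and replicates 2 and 3 were above all WT libraries. The log2 fold change was 2.04 (SE 0.74, edgeR adjusted p = 0.183), and 2.52 without Nr2e3-/- replicate 1 (edgeR adjusted p = 0.00934). Without Nr2e3-/- replicate 2 it was 1.64 (edgeR adjusted p = 0.318) and without Nr2e3-/- replicate 3 it was 1.79 (edgeR adjusted p = 0.45). Csf3r, the G-CSF receptor on chromosome 4 (126024550 to 126044440), is carried by neutrophils as well. It had 41, 81 and 53 counts in WT and 12, 94 and 38 counts in Nr2e3-/- libraries, with WT replicate 2 above Nr2e3-/- replicate 3 and groups that overlapped throughout. Its log2 fold change was 0.08 (SE 0.49, edgeR adjusted p = 0.937), and 0.45 without Nr2e3-/- replicate 1. Csf3r had 4 to 8.83 times the counts of Cxcr2 in the WT libraries and Nr2e3-/- replicate 1, but 1.71 and 1.09 times in Nr2e3-/- replicates 2 and 3.

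Il1b, on chromosome 2 (129364570 to 129371139), had 49, 88 and 82 counts in WT and 23, 107 and 48 counts in Nr2e3-/- libraries. Nr2e3-/- replicates 1 and 2 were the lowest and the highest of the 6 libraries, and replicate 3 lay within the WT range. The log2 fold change was 0.09 (SE 0.37, edgeR adjusted p = 0.899) and 0.37 without Nr2e3-/- replicate 1. Il1bos is annotated on the opposite strand of Il1b, and since the counting is not stated to use strand, reads of the pair cannot be told apart.

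Il1r2, on chromosome 1 (40074079 to 40125231), had 1, 5 and 2 counts in WT and 5, 31 and 14 counts in Nr2e3-/- libraries. In CPM it was the only gene of the 10 whose groups did not overlap, against 10.5% of the genes with at least 1 count that were higher without overlap. The separation rested on the depth of the libraries, as WT replicate 2 and Nr2e3-/- replicate 1 had 5 counts each, with exact Poisson 95% intervals of 0.0549 to 0.394 and 0.107 to 0.772 CPM. Over summed counts, 50 against 8, the ratio was 8.72 with an exact 95% interval of 4.1 to 21.3. That interval covers counting error only and not the spread between mice. The exact two-sided permutation p was 0.1, the smallest that 3 against 3 allow. Gm37347 overlaps Il1r2 on the same strand and Gm16894 on the opposite strand, so its few counts are uncertain. When all genes with at least 1 count were tested, 0 of the 10 were called, against 0.213% of genes called higher, and the edgeR adjusted p was 0.0827 for Il1r2 and 0.112 for Mmp8. In the fit without Nr2e3-/- replicate 1 it was 0.012 for Il1r2 and 0.0059 for Mmp8. Both entered that fit only through Nr2e3-/- replicates 2 and 3, where they were high, so these values are not support for a difference.

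In 7 genes Nr2e3-/- replicates 2 and 3 were both above all 3 WT libraries, against 21.5% of the genes with at least 1 count, and in 6 of these Nr2e3-/- replicate 1 was not, as in 2068 of the 18815 genes with at least 1 count. Nr2e3-/- replicate 2 was the highest of the 6 libraries for 8 of the 10 genes, as in 3251 of the 13572 genes tested, while the lowest was Nr2e3-/- replicate 1 for 4 genes, WT replicate 3 for 4 and WT replicate 1 for 2, against 17.2%, 16.5% and 8.47% of genes tested. Within WT, replicate 2 was the highest for all 10 genes, against 32.9% of genes tested. These counts were made after the values had been seen, and the genes are not independent of each other. The ratio of the highest to the lowest library was larger in Nr2e3-/- than in WT for 8 of the 10 genes, such as S100a8 (11.8 against 1.61) and Cxcl1 (10.8 against 4.82). It was smaller for Cxcl2 (2.88 against 15.1) and Il1r2 (3.48 against 4.4).

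**Figure D2:**
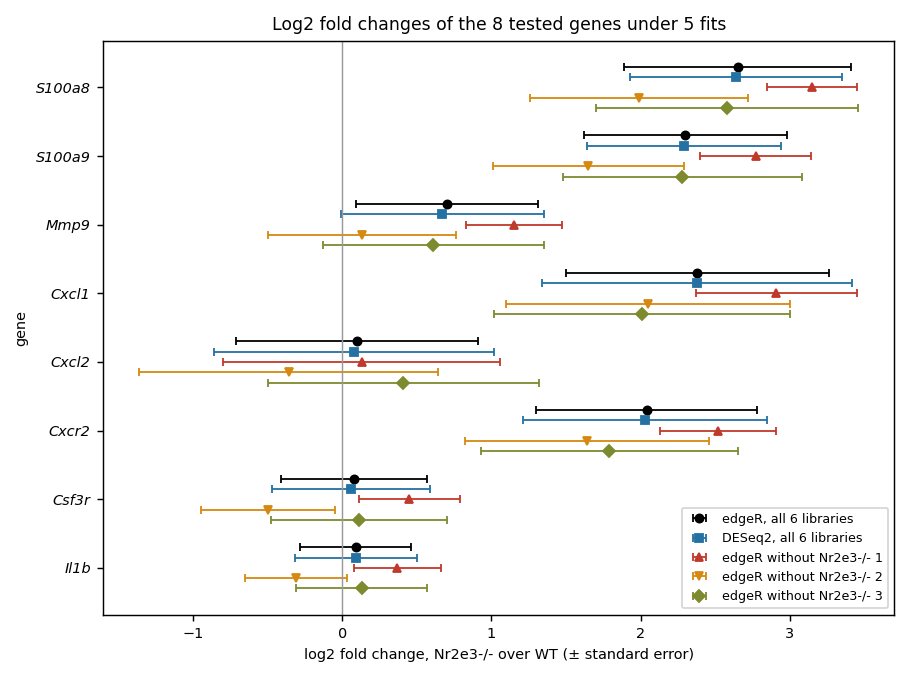
Log2 fold change of Nr2e3-/- over WT (horizontal axis, ± standard error) for the 8 genes that passed the filter, in edgeR and DESeq2 with all 6 libraries and in edgeR without each Nr2e3-/- library. S100a8, S100a9, Cxcl1 and Cxcr2 lie at 1.64 or above in every fit shown, with the shortest error bars without Nr2e3-/- replicate 1, while Cxcl2, Csf3r and Il1b lie on either side of 0.

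Other neutrophil genes were examined as a list of 32 markers, of which 31 were found and 15 passed the filter. Their median log2 fold change was 0.84, against 0.01 over all genes tested, with 12 above and 3 below 0. It was 0.00 without Nr2e3-/- replicate 2 and 1.27 without Nr2e3-/- replicate 1. Of the 15, 4 were higher and 0 lower with an unadjusted p under 0.05, against 11.8% and 9.72% of all genes tested, and 0 passed when adjusted over all genes. Chil3, counted among the 4, passed the filter only through Nr2e3-/- libraries, the group where it was high. Wfdc21, also among the 4, was at a similar level in every Nr2e3-/- library, unlike S100a8. It had at least 4300 counts in every library, where S100a8 had 17 to 31 in WT, and its source cell was not tested. The others of the 4 were Prtn3 and Fpr1. The 3 markers below 0 were G0s2, an inhibitor of lipolysis that hepatocytes also make (-1.02, edgeR adjusted p = 0.373), Hdc, the enzyme of histamine synthesis (-0.67, edgeR adjusted p = 0.252), and Itgb2l, an integrin subunit (-0.85, edgeR adjusted p = 0.285). Retnlg, a resistin-like protein of neutrophils, did not pass the filter and had 4, 5 and 4 counts in WT and 4, 97 and 30 in Nr2e3-/- libraries. Chil3, a chitinase-like protein of neutrophils and macrophages, had 8, 10 and 6 counts in WT and 6, 95 and 32 in Nr2e3-/- libraries. In CPM neither overlapped between groups, but Nr2e3-/- replicate 1 was close to the highest WT library, with 0.265 against 0.169 CPM for Retnlg and 0.397 against 0.338 CPM for Chil3.

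The granule genes Elane, Mpo, Camp, Ltf and Ngp had at most 11 counts in any library, that of Ngp in Nr2e3-/- replicate 2. Prtn3, the granule serine protease proteinase 3, had 15, 24 and 5 counts in WT and 10, 195 and 36 in Nr2e3-/- libraries (log2 fold change 2.68, edgeR adjusted p = 0.164). Fpr1, a receptor for bacterial peptides, did not overlap between groups and had a log2 fold change of 0.74 (edgeR adjusted p = 0.177). Lcn2, a granule protein that hepatocytes also secrete, had 1688, 14387 and 748 counts in WT and 297, 18966 and 4812 in Nr2e3-/- libraries, and WT replicate 2 exceeded Nr2e3-/- replicate 3. Wfdc21, with 4300 to 7502 counts per library, had a log2 fold change of 0.59 (edgeR adjusted p = 0.093) and had a similar level in Nr2e3-/- replicate 1 (285 CPM) and in replicates 2 and 3 (278 and 289 CPM).

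Among 27 further chemoattractants, growth factors and receptors, 17 were tested, with a median log2 fold change of 0.13, which ranged from 0.04 without Nr2e3-/- replicate 2 to 0.54 without Nr2e3-/- replicate 1. Here 3 of 17 were higher and 0 lower with an unadjusted p under 0.05, against 11.8% and 9.72% of all genes, and 0 passed the adjustment. C5ar1, the receptor of complement fragment C5a, had 23, 37 and 39 counts in WT and 32, 138 and 80 in Nr2e3-/- libraries. Its log2 fold change was 1.74 (edgeR adjusted p = 0.0984), and the groups did not overlap in CPM. Hc, which encodes complement C5, had a log2 fold change of 0.60, and Ccl6, a chemokine of myeloid cells, 1.30. Of the others with the highest levels, Cxcl12, which retains neutrophils in the marrow, had a log2 fold change of -0.47 and Lta4h, an enzyme of leukotriene B synthesis, of 0.05. Il17ra, the interleukin-17 receptor, had 25.7 ± 2.14 CPM (SD, n = 3) in WT against 51.2 ± 31 CPM in Nr2e3-/- tumors (edgeR adjusted p = 0.238). The lowest of the list was Alox5, the lipoxygenase of leukotriene synthesis, with -1.58 (edgeR adjusted p = 0.298). Csf3, which encodes G-CSF, Csf2 and Il17a had 0 counts in all 6 libraries, each allowing up to 3 counts, and Il6 and Tnf had at most 3 and 12 counts in a library.

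In the interleukin-1 pathway 19 of 20 genes were tested, with a median log2 fold change of 0.29 (-0.03 without Nr2e3-/- replicate 2 and 0.49 without Nr2e3-/- replicate 1), and 5 were higher and 0 lower with an unadjusted p under 0.05, against 11.8% and 9.72% of all genes. Il1r1, the signaling receptor, had 1556, 2158 and 1930 counts in WT and 1872, 15265 and 10612 in Nr2e3-/- libraries. All Nr2e3-/- libraries were above all WT libraries, with 124 CPM in Nr2e3-/- replicate 1 against 73.0 CPM in the highest WT library, and 567 and 574 CPM in Nr2e3-/- replicates 2 and 3. On the log2 scale the difference was 2.66 (SE 0.53, edgeR adjusted p = 0.0936). Myd88 and Irak4, which relay its signal, had log2 fold changes of 0.69 and 0.51, against -0.08 for Il1rap, the coreceptor of Il1r1, 0.19 for the kinase Irak1 and 0.04 for Gsdmd, the pore protein of pyroptosis. Il33, an alarmin of the same cytokine family, had 37 to 123 counts in 5 libraries and 3230 counts in Nr2e3-/- replicate 2, so its log2 fold change of 3.52 rested on that library.

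Genes of the NF-κB response and of leukocyte adhesion had a median log2 fold change of 0.72 over 19 genes, with 18 above 0, and of 0.16 without Nr2e3-/- replicate 2. An unadjusted p under 0.05 was found for 6 of them, all higher, against 11.8% of all genes, and 0 passed the adjustment. Nfkb1 (log2 fold change 1.34) and Rela (0.72) encode NF-κB subunits, and Cebpb (1.04) and Cebpd (1.22) transcription factors of the acute phase response. Nfkb1 had 26.8 to 30.6 CPM in WT, 31.0 CPM in Nr2e3-/- replicate 1 and 113 and 76.3 CPM in replicates 2 and 3. Nfkbia, the NF-κB inhibitor that NF-κB itself induces, had a log2 fold change of 0.20 (edgeR adjusted p = 0.427).

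Of other matrix proteases and their inhibitors, 9 of 12 were tested, with a median log2 fold change of -0.46, which was between -0.28 (without WT replicate 1) and -0.11 (without WT replicate 2) when any library was left out. Timp1, an inhibitor of MMP8 and MMP9, had 7, 6 and 7 counts in WT and 7, 155 and 29 counts in Nr2e3-/- libraries. It passed the filter only through the Nr2e3-/- libraries, the group where it was high, and the other 8 had an unadjusted p of 0.05 or above. Those with the highest levels were Timp3 (log2 fold change 0.12), Timp2 (-0.46), Mmp14 (-0.15) and Mmp19 (0.31). In the rest of the S100 family 7 of 12 genes were tested with a median of 0.00. Of the 7, 1 was higher with an unadjusted p under 0.05, against 11.8% of all genes tested. It was S100a10, which is made by many cell types (log2 fold change 1.56, edgeR adjusted p = 0.0997). Of the others with the highest levels, S100a1 had a log2 fold change of 0.09 and S100a13 of -0.24.

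**Figure D3:**
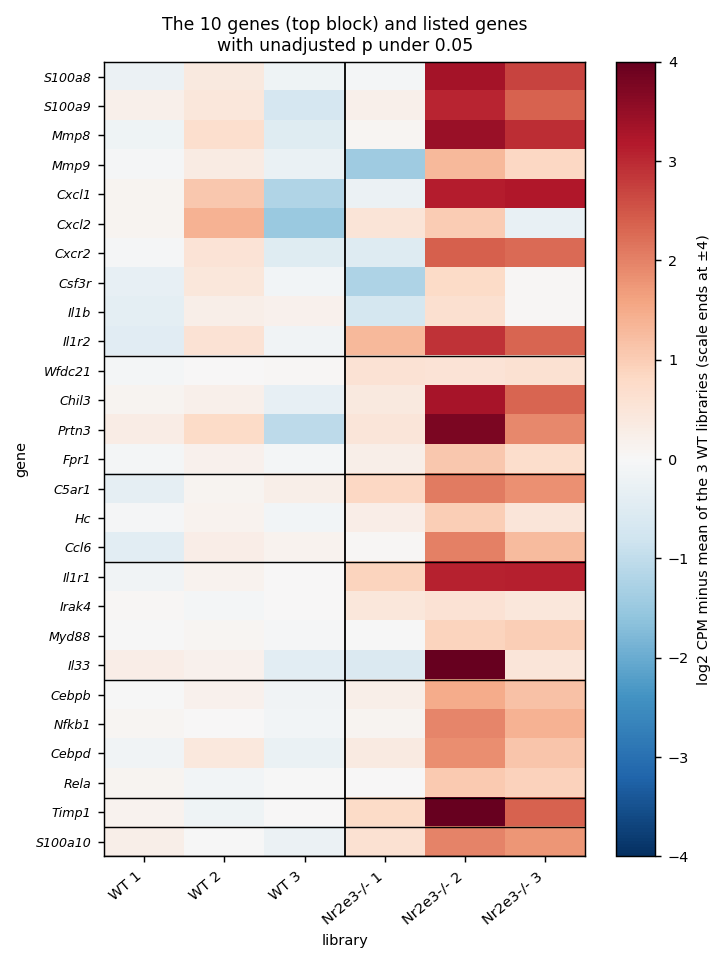
Log2 CPM minus the mean of the 3 WT libraries (color, red higher and blue lower, scale ending at ±4) in the 6 libraries (columns) for the 10 genes (top block) and listed genes with an unadjusted p under 0.05 (blocks below, in the order of the text). The strongest red stands in Nr2e3-/- replicates 2 and 3, and Il33 and Timp1 in Nr2e3-/- replicate 2 are at or past its end.

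Markers of other cells moved in part with these genes. Over 18 monocyte and macrophage markers, all tested, the median log2 fold change was 0.31 (-0.19 without Nr2e3-/- replicate 2 and 0.57 without Nr2e3-/- replicate 1). An unadjusted p under 0.05 was found for 0 of them, against 11.8% higher and 9.72% lower of all genes tested. By library, the median log2 difference from WT of these markers was -0.41, 0.94 and 0.00 in Nr2e3-/- replicates 1, 2 and 3, against -0.35, 1.58 and 0.63 for the 15 neutrophil markers and -0.39, 1.85 and 1.56 for the 8 tested genes of interest. Summed over the list, the macrophage markers had 515 to 646 CPM in WT and 450, 1150 and 608 CPM in Nr2e3-/- replicates 1, 2 and 3. Their defining genes Clec4f, Csf1r and Cd68 had at least 152 counts in every library. In 6 of the 18 macrophage markers, Nr2e3-/- replicates 2 and 3 were both above all WT libraries, against 27.7% of the genes tested. Clec4f, among the 6, had 110.7 CPM at this precision in both WT replicate 3 and Nr2e3-/- replicate 3. The same rule held in 7 of the 10 genes of interest, against 21.5% of the genes with at least 1 count.

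Red cell and platelet genes had a median log2 fold change of 0.48 over 9 tested genes (0.23 without Nr2e3-/- replicate 2). Of the 9, 1 was higher (Alas2, the erythroid enzyme of heme synthesis) and 0 lower with an unadjusted p under 0.05. The shares over all genes tested were 11.8% and 9.72%. The summed level of the list was 146 to 207 CPM in WT and 248, 327 and 232 CPM in Nr2e3-/- replicates 1, 2 and 3. Alas2 made up much of it, with 66.1 to 92.0 CPM in WT and 124, 97.2 and 111 CPM in these replicates. In the globin genes Hba-a1, Hba-a2, Hbb-bs and Hbb-bt, only Nr2e3-/- replicate 2 was above all WT libraries. Hbb-bs had 41.15 to 64.7 CPM in WT and 63.9, 131 and 63.1 CPM in the Nr2e3-/- replicates. Alas2 was above Hbb-bs in every library but Nr2e3-/- replicate 2, so the summed level was not read as blood content. The tested platelet genes Ppbp, Gp1ba, Itga2b and Pf4 had log2 fold changes of 0.41, 0.18, -0.05 and -0.34. Hba-a1 and Hba-a2 had the same counts and both entered the list. Endothelial and stellate cell markers had a median log2 fold change of -0.08 over 12 genes (-0.36 without Nr2e3-/- replicate 1 and 0.08 without Nr2e3-/- replicate 3). The part of blood content or macrophages in the values of the neutrophil genes was not tested.

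**Figure D4:**
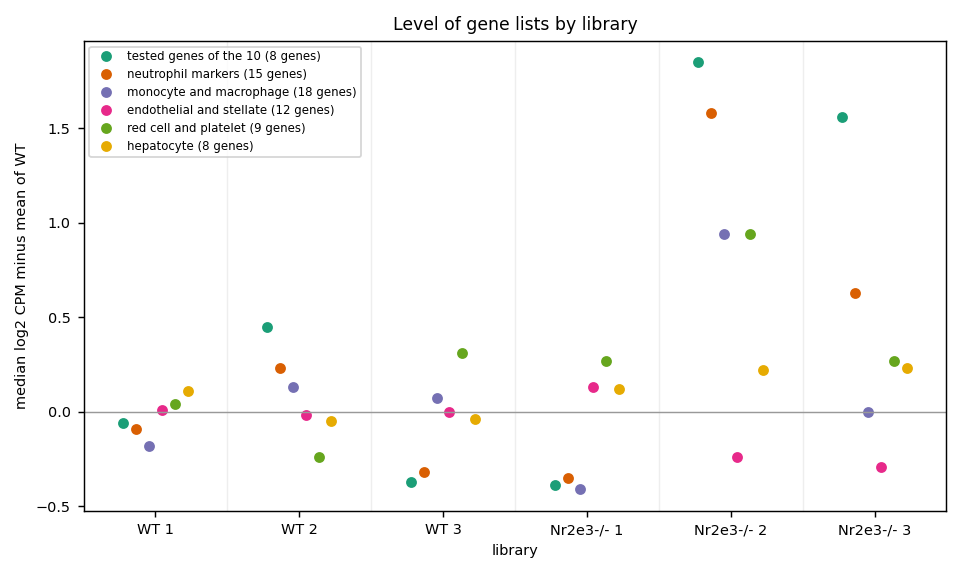
Median over the tested genes of each list of log2 CPM minus the WT mean (vertical axis) in the 6 libraries (horizontal axis), with a color for each list and its number of tested genes in the key. Nr2e3-/- replicate 2 is high for myeloid, red cell and neutrophil lists, with 1.85 for the 8 tested genes of interest. In Nr2e3-/- replicate 3 these 8 genes are at 1.56, the 15 neutrophil markers at 0.63 and the macrophage markers at 0.00.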

How the data were processed

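Liver tumor RNA of 3 WT and 3 Nr2e3-/- mice was sequenced by the authors as single-end TruSeq libraries. The deposited values are raw counts per gene. Per the study's methods, reads were aligned to mm10 with TopHat and counted with featureCounts, and the processing notes also name Bowtie2 2.4.5 and SAMtools 1.14. Whether counting used strand is not given in the sources used here. Columns of the authors' own comparison (fold changes and p-values) were not used.

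Counts were tested with edgeR 4.0.16 in R 4.3.3 (quasi-likelihood, TMM, filterByExpr with a minimum count of 10 and total of 15), with genotype as the only term, the 6 libraries together and Benjamini-Hochberg adjustment over 13572 genes at 0.05. Single genes were also compared by exact two-sided permutation over the 6 libraries, for which the smallest p is 0.1. Poisson intervals are exact at 95% and cover counting error only, as do limits of 3 counts for a count of 0. Log2 CPM values by library used a prior count of 2. CPM per kilobase was divided by the exon length of the gene. Alternatives were RLE scaling, 2 other filters, DESeq2 1.42.0, a replicate term and leaving out each library. For Nr2e3-/- against WT, edgeR was also run on simulated counts of 13396 genes. It found 42.9% of those given a log2 change of 1 and 86.7% of those given 2. Libraries of a group were drawn alike there, with none set apart as Nr2e3-/- replicate 1 was. The levels were those of all genes tested, so these shares do not give the power for the 10 genes.

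The 10 genes and all gene lists were chosen with earlier results of these data known. Genes named are the 10, Nr2e3, up to 4 per list with the highest mean CPM and up to 4 with the lowest unadjusted p under 0.05, defining neutrophil markers, genes at 0 counts, and the 8 genes with profiles nearest to S100a8 and to Cxcl1. Others, namely the chromosome 5 chemokines, Tnf, Il6, Cd68, Itgb2l and Alox5, were named after their values were seen. Ly6g was not analysed here. The list of T and B cell markers is not reported here.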

Additional observations from a re-analysis of the deposited data

How the results depend on the processing

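Of the 10 genes, 0 were called by edgeR with all 6 libraries, under RLE scaling, under both other filters and with a replicate term. DESeq2 called 2, and 0 to 7 were called when a library was left out, with 7 only without Nr2e3-/- replicate 1. Among these 7, Mmp8 and Il1r2 passed the filter of that fit only through Nr2e3-/- replicates 2 and 3, where they were high. Mmp8 and Il1r2 were not tested in the main fit, under RLE scaling, with a replicate term or by DESeq2. With at least 10 counts in every library, only S100a8, S100a9, Cxcl1, Csf3r and Il1b were tested. Over all genes the count of 13 became 70 without the filter, 7 with at least 10 counts in every library, 1095 with DESeq2, and 0 to 3022 when a library was left out. The small differences of 3 genes changed sign: Cxcl2 ranged from -0.42 to 1.26 when a library was left out (-0.06 without WT replicate 1, -0.42 without WT replicate 3, -0.36 without Nr2e3-/- replicate 2), Csf3r from -0.50 to 0.45 (-0.08, -0.01 and -0.50 without the same libraries) and Il1b from -0.31 to 0.37 (-0.09 without WT replicate 1, -0.31 without Nr2e3-/- replicate 2). The cause was not tested. With replicate number as a block, 0 genes were called over all genes and the log2 fold change of Csf3r was -0.07. The deviations of same-numbered libraries from their group means correlated at -0.077, 0.221 and 0.023 over genes. Those of unlike-numbered libraries correlated at -0.265 to 0.225. The numbers thus gave no sign of pairing the samples, but so few values cannot exclude it. Depth limits Mmp8, Il1r2, Cxcl2 and Cxcr2, which had at most 10, 5, 31 and 15 counts in a WT library. It also limits S100a8 and Mmp9, with at most 31 and 32 counts in a WT library and 11 and 4 in Nr2e3-/- replicate 1.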

Other observations

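The genes whose profiles over the 6 libraries lay nearest to that of S100a8, by root mean square distance of mean-centered log2 CPM, were A930001C03Rik (0.137), Mid1 (0.156) and Plscr1 (0.182), nearer than S100a9 (0.346), Cxcr2 (0.382) or Cxcl1 (0.569). Plscr1, a phospholipid scramblase induced by interferon, had 464, 572 and 462 counts in WT and 271, 5512 and 1925 in Nr2e3-/- libraries. Slc37a1, Alpk1, Cpne8, D10Wsu102e and Chil3 followed at 0.261 to 0.307. Nearest to Cxcl1 were Orm2 (0.358), an acute phase plasma protein of hepatocytes, Tmc5 (0.46) and Slc37a1 (0.478). Orm2 had 122, 368 and 66 counts in WT and 84, 2004 and 682 in Nr2e3-/- libraries, with WT replicate 2 the highest WT library as for Cxcl1. S100a9 (0.504), Srxn1 (0.523), Cxcr2 (0.525), D10Wsu102e, F13a1, Tlr2 and 2010003K11Rik (0.532 to 0.555) and S100a8 (0.569) followed. The distances rest on 6 libraries and are descriptions with no test.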
